A study of Homo sapiens with 24 samples.

Results

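The desmosome is the junction that anchors the keratin filaments of one epithelial cell to those of the next. The 10 genes described here encode its components and were taken by name from the count table: the desmosomal cadherins DSG2, DSG3, DSC2 and DSC3, the armadillo proteins PKP1, PKP2, PKP3 and JUP, the plakin DSP and the tetraspan membrane protein PERP. They are 10 of the 60617 genes in the table, and 10 of 10 passed the filter on low counts, which 15476 genes passed in all. In MDA686TU carcinoma cells treated with resveratrol, alone or with EGCG, mRNA of DSG3, DSC2 and JUP rose while that of PKP3 and PKP2 fell, and no member passed the test with EGCG alone, which 1.76% of all tested genes did. A gene is called here when its Benjamini-Hochberg adjusted p in edgeR's quasi-likelihood test was under 0.1 and its unadjusted p under 0.05, higher or lower by the sign of its log2 fold change.

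Desmogleins and desmocollins are calcium-dependent adhesion molecules whose outer parts meet between neighbouring cells. Their tails bind plakoglobin (JUP) and plakophilins, which in turn bind desmoplakin (DSP), the protein that holds keratin. In stratified epithelia, DSG2 and DSC2 are widely expressed or basal forms, whereas DSG3, DSC3 and PKP1 mark the squamous type of junction. PERP is a target of the p63 and p53 transcription factors that lies in the desmosome membrane.

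MDA686TU is an established human cell line from a squamous carcinoma of the head and neck, grown here in DMEM/F12 with serum. The study sequenced 4 groups of 6 libraries after 24 h: an untreated control, EGCG (a green tea catechin) at 40 µM, resveratrol (a plant stilbene) at 15 µM, and the combination of both at these concentrations. All groups are the same line in culture, and the labels name no genetic change. The resveratrol stock was in DMSO and the sources used here do not say that the control received this solvent, so resveratrol and its solvent cannot be told apart. Nothing states that the replicates were separate cultures, and p-values measure the spread between these 24 libraries.

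Library totals lay between 7034872 and 11735574 counts, and the lowest count of any member in any library was 352. The 10 members together took between 0.289% and 0.361% of a library's counts. Squamous markers were plentiful, the summed normalized count of KRT5, KRT14, KRT6A, TP63, CDH1, EPCAM and SFN being 134796 to 142562 in the untreated control, 129331 to 146199 with EGCG, 112817 to 119833 with resveratrol and 111085 to 119946 in combination. Each of the endothelial, immune and melanocyte marker lists summed to no more than 19.944 in any library. The 6 fibroblast markers summed to between 1117 and 1349 in the control, 898 and 1114 with EGCG, 1314 and 1559 with resveratrol, and 1526 and 1755 in combination. Nearly all of this was COL1A1, a fibrillar collagen, which averaged 1182, 981, 1445 and 1650 normalized counts in these groups. COL1A1 was lower with EGCG (log2 fold change -0.27, adjusted p = 0.00215, edgeR) and higher with resveratrol (0.29, adjusted p = 8e-06, edgeR) and in combination (0.48, adjusted p = 2.9e-10, edgeR). The other fibroblast markers had few counts. COL1A2, LUM and PDGFRB averaged 19.5, 5.00 and 0.501 in the control and 22.4, 7.50 and 1.11 with resveratrol. COL3A1 averaged 0.466 and 0.349, and DCN, a fibroblast proteoglycan, averaged 0.175 in the control and 0 with resveratrol. KRT5, KRT14 and KRT6A, at means of 45967, 32556 and 39951 in the control, weighed most in the squamous sum. Of the 7 squamous markers 1 (CDH1) was called higher and 4 (KRT5, KRT14, KRT6A and SFN) lower with resveratrol, and 2 and 3 in combination. Over all tested genes 56.9% and 59.8% were called in either direction. The part of the lower squamous and higher fibroblast sums in the members' changes was not tested. In bulk RNA, fewer cells of a kind and less RNA per cell cannot be told apart.

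Differences among libraries also touch the members. The mitochondrial share of counts was at most 0.326% in any library numbered 1 to 3 and at least 0.448% in any library numbered 4 to 6, a division that no label names. In the untreated control, replicates 4 to 6 were all above replicates 1 to 3 for DSG3, DSC2, DSC3, PKP1, JUP and DSP. Combination replicate 3 correlated least with its group (median r of log2 CPM 0.9897, against at least 0.9912 elsewhere), and for 10 of 10 members it held an extreme of the 6 combination libraries. It was lowest for DSG2, DSG3, DSC2, DSC3, PKP2 and PERP and highest for PKP1, PKP3, DSP and JUP. Results that rest on it are given with and without it.

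Levels per length were compared by the authors' FPKM. In the untreated control JUP stood at 128.7 ± 5.52 FPKM (SD, n = 6) and PERP at 118.0 ± 3.90, followed by PKP3 at 88.4 ± 2.59, DSP at 66.3 ± 8.88 and PKP1 at 61.7 ± 3.28. Below them came DSG2 at 31.3 ± 0.907, DSG3 at 24.3 ± 1.71, DSC3 at 19.8 ± 0.565 and PKP2 at 19.6 ± 1.15, and DSC2 was lowest at 3.87 ± 0.384. The plaque proteins other than PKP2, and PERP, lay above every cadherin. DSP and PKP1 did not differ beyond their spread, DSP being the higher in 4 of 6 control libraries, and neither did DSC3 and PKP2, with DSC3 higher in 4 of 6. JUP was above PERP in 6 of 6 libraries of each group.

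**Figure D1:**
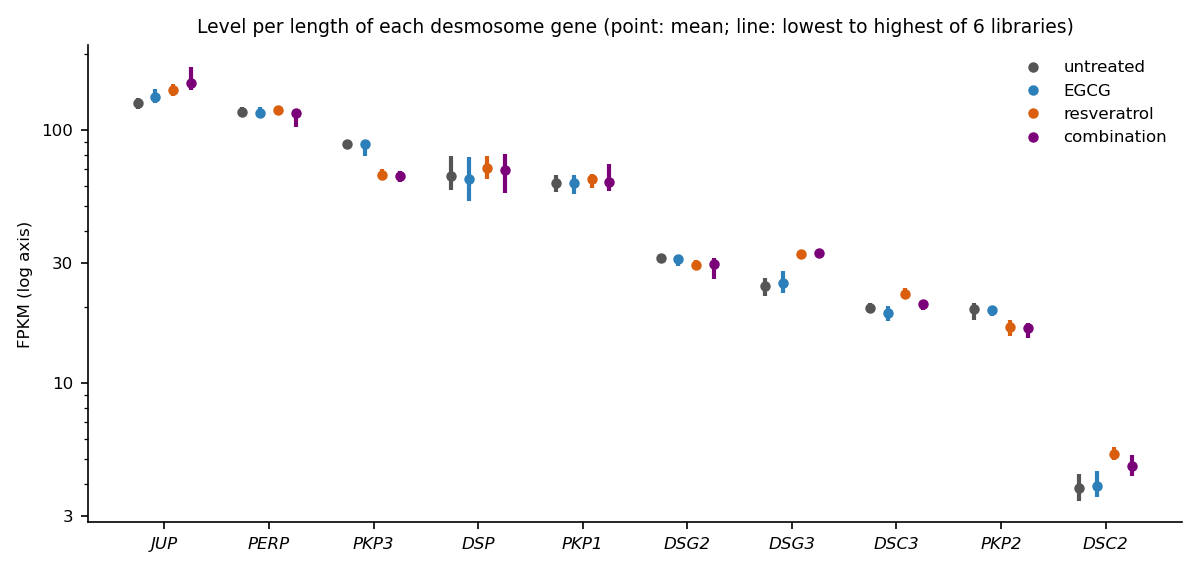
Mean FPKM of the 10 genes, with the authors' gene lengths, on a log axis, with a line from the lowest to the highest of 6 libraries in each of the 4 groups. JUP is highest and DSC2 lowest in every group, and DSG3 passes DSG2 while PKP3 comes down to the level of DSP with resveratrol and in combination, an order that exon-union lengths do not give.

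The order of FPKM levels differed in the groups with resveratrol. DSG3 was below DSG2 in 6 of 6 control libraries and above it in 6 of 6 with resveratrol, where the means were 32.3 and 29.4 FPKM. PKP3 came down to 66.7 ± 2.38 FPKM, against 71.1 ± 6.71 for DSP and 63.9 ± 3.35 for PKP1, so that DSP was above it in 5 of 6 libraries. The places of DSG3 and PKP3 depend on the gene length used: the FPKM implies a DSG3 length 0.921 times that of DSG2, whereas the union of exons in GENCODE v44 gives 0.588, and with that length DSG3 was already 1.22 times DSG2 in the control. With exon-union lengths PKP3 stayed above both, at 582 normalized counts per kb with resveratrol against 558 for PKP1 and 458 for DSP. The change between groups does not depend on length.

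The 4 desmosomal cadherins come first by role. All are neighbours on chromosome 18 (GRCh38, GENCODE v44), with DSC3 (ENSG00000134762) at chr18:30989365-31042815 and DSC2 (ENSG00000134755) at chr18:31058840-31102522 on the minus strand, and DSG3 (ENSG00000134757) at chr18:31447741-31478702 and DSG2 (ENSG00000046604) at chr18:31498177-31549008 on the plus strand. DSC1, DSG1 and DSG4 lie between these pairs, and the 7 genes span 559.6 kb. DSG3 ends 19.5 kb before DSG2 begins. The antisense RNAs DSG2-AS1 and DSCAS, which overlap DSG2 and DSC2, averaged 0.417 and 0.125 counts, against 1626 and 493 for the genes, so little could be shared even if strand was not used in counting.

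The upstream sequences of DSG3 and DSG2 are shown because these adjacent genes of one family had opposite calls with resveratrol. The DSG2 call was small (log2 fold change -0.08, adjusted p = 0.055, edgeR) and was lost in 13 of 35 alternatives. Each run is the 250 bases before the start site, 5′ to 3′ on the plus strand, from RefSeq (GRCh38.p14), at chr18:31447491-31447740 for DSG3 and chr18:31497927-31498176 for DSG2. Capitals mark GC boxes (GGGCGG) and E-boxes (CACCTG), each searched on both strands.
DSG3: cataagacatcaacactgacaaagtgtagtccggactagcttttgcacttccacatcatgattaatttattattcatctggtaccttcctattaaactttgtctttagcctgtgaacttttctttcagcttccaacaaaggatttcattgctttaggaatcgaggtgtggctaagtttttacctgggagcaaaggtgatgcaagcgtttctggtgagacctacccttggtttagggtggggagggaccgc
DSG2: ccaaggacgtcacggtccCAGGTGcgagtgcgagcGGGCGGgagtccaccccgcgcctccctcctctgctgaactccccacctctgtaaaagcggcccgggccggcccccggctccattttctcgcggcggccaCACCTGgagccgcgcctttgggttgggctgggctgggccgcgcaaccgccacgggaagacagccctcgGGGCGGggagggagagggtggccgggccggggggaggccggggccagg
The DSG3 window held 42.8% G and C and none of the motifs, and the DSG2 window held 75.2% with 2 GC boxes and 2 E-boxes. The median over 35116 promoters of this length was 58%, with quartiles of 46.4% and 68.0%. The table gave 10 start sites for 8 members, none for PKP2 and PKP3. GC boxes occurred in 7 of the 10 windows and in 42.6% of all promoters, E-boxes in 4 and 17.5%, the AP-1 motif TGANTCA in 1 (PERP) and 6.57%. The grainyhead motif AACCGGTT (0.117% of all promoters) and the cAMP response element TGACGTCA (1.65%) were in none. The search says only which letters these windows hold.

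DSG3, the squamous desmoglein and the autoantigen of pemphigus vulgaris, stood higher in the groups with resveratrol. Its normalized counts ran from 1076 through a median of 1183 to 1270 in the untreated control, and from 1106 through 1187 to 1358 with EGCG. They ran from 1530 through 1566 to 1628 with resveratrol, and from 1530 through 1610 to 1649 in combination. Every library with resveratrol thus lay above every library without it. DSG3 rose by a log2 fold change of 0.42 ± 0.04 (SE) with resveratrol (adjusted p = 4e-10, edgeR quasi-likelihood test with Benjamini-Hochberg adjustment), a 33.5% gain, and by 0.44 ± 0.04 in combination (adjusted p = 1e-10, edgeR). The two-sided exact permutation test gave p = 0.00216 for both, the smallest that 6 against 6 allows. Its log2 fold change with resveratrol was 0.49 within replicates 1 to 3 and 0.35 within replicates 4 to 6 (adjusted p = 3.33e-09 and 2.2e-08, edgeR).

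DSG2, the desmoglein of simple and basal epithelia, moved little. Its control libraries ranged from 1589 to 1706 with a median of 1652, those with EGCG from 1534 to 1699 around 1650, those with resveratrol from 1498 to 1617 around 1548, and those in combination from 1365 to 1646 around 1606. The groups overlapped. DSG2 was called lower with resveratrol, at a log2 fold change of -0.08 ± 0.04 (adjusted p = 0.055, edgeR; exact permutation p = 0.0108), and in combination at -0.08 ± 0.04 (adjusted p = 0.053, edgeR; exact permutation p = 0.0736). This call was lost in 13 and 14 of 35 alternatives, among them an adjusted p under 0.05 and scaling by library size alone (0.00 with resveratrol), and in combination it was lost without combination replicate 3 (-0.05, adjusted p = 0.212, edgeR). The single libraries whose removal ended it in both comparisons were untreated replicates 2, 4 and 5 and EGCG replicates 1, 2, 4 and 6, with resveratrol replicates 5 and 6 in the first and combination replicate 2 also in the second.

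DSC2, the broadly expressed desmocollin, had the lowest level and the widest range of group means. Its control libraries ran from 375 through 415 to 478 and those with EGCG from 388 through 417 to 493. With resveratrol they ran from 544 through 568 to 612, and in combination from 467 through 516 to 567. The resveratrol libraries lay above all controls, and the combination libraries lay between, overlapping both. DSC2 rose by 0.45 ± 0.06 with resveratrol (log2 scale, adjusted p = 4.4e-08, edgeR) and by 0.29 ± 0.06 in combination (adjusted p = 0.00012, edgeR). The size differed between the replicate sets. DSC2 means were 387 and 600 in replicates 1 to 3 of the control and resveratrol groups, and 458 and 551 in replicates 4 to 6, which gave log2 fold changes of 0.64 (adjusted p = 2.2e-08, edgeR) and 0.27 (adjusted p = 0.000427, edgeR).

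DSC3, the squamous desmocollin, ran from 1297 through 1324 to 1398 in the control and from 1188 through 1257 to 1358 with EGCG. It ran from 1453 through 1512 to 1600 with resveratrol and from 1311 through 1376 to 1434 in combination. All 6 resveratrol libraries were above those of every other group. DSC3 rose by 0.19 ± 0.04 (log2 scale, adjusted p = 1.9e-05, edgeR) with resveratrol, and its difference in combination was 0.05 ± 0.04 (adjusted p = 0.223, edgeR). The rise with resveratrol was 0.19 within either replicate set. In combination it was called in 4 of 35 alternatives (library size alone, at least 10 counts in every library, only the groups compared, and without untreated replicate 5).

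**Figure D2:**
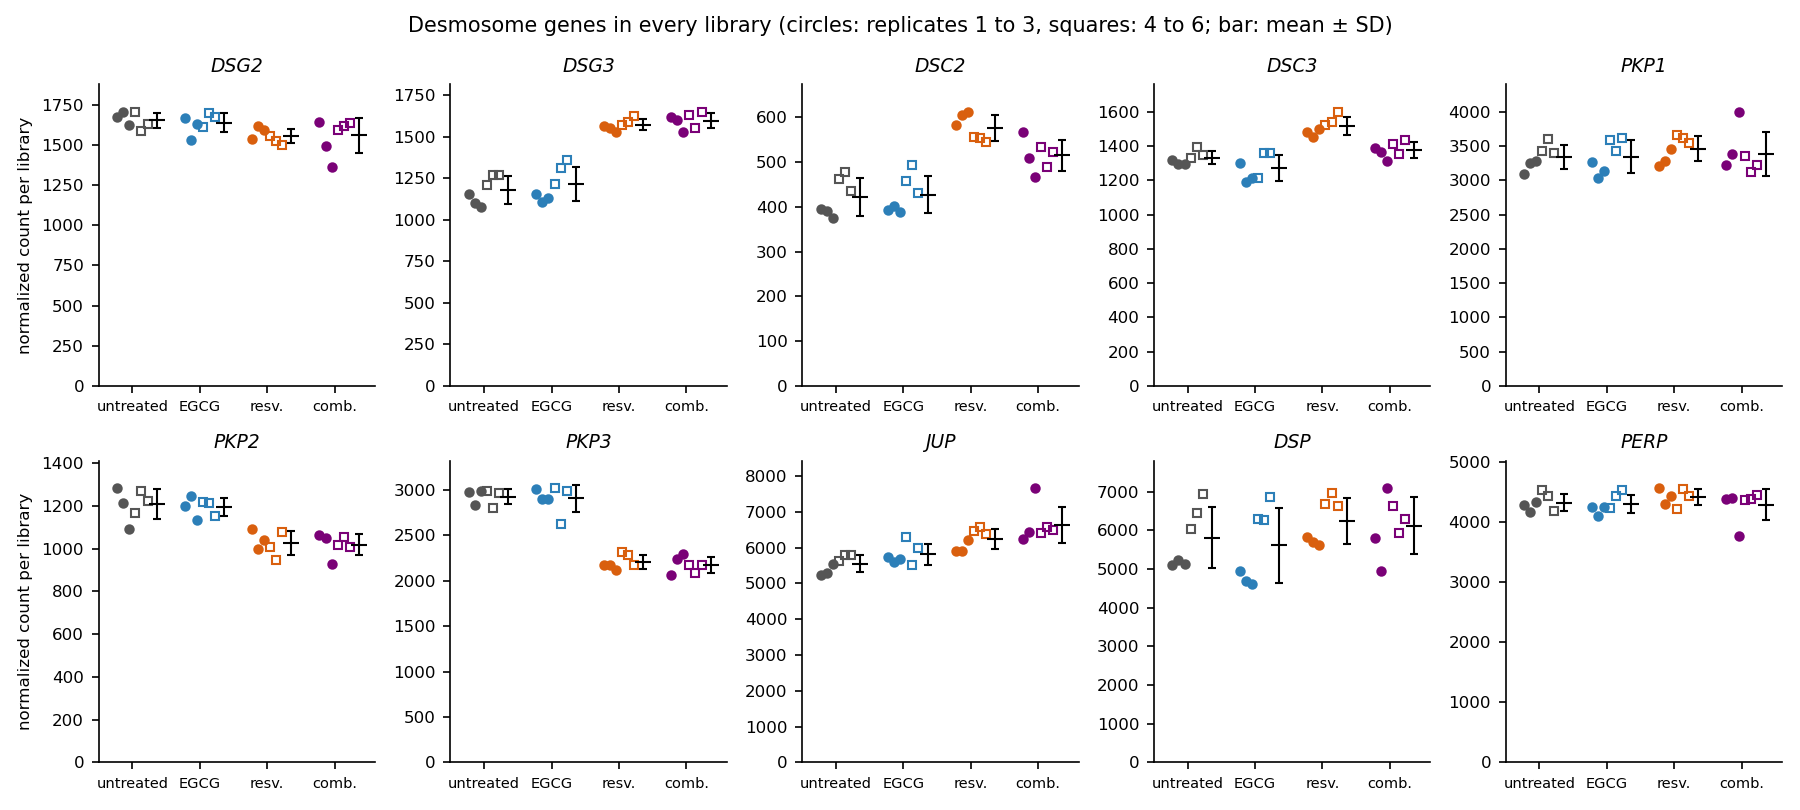
Normalized counts of the 10 genes in all 24 libraries by group, each axis starting at 0, with circles for replicates 1 to 3, squares for replicates 4 to 6 and a bar for mean ± SD. DSG3 and DSC2 stand higher and PKP3 and PKP2 lower in the 2 groups with resveratrol, and DSP separates by replicate set in the other 3 groups more than in combination.

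Of the 3 plakophilins, 2 fell. PKP3 (ENSG00000184363, chr11:392614-404908, plus strand) binds most desmosomal cadherins. Its normalized counts were 2802, 2974 and 2991 in the control as lowest, median and highest, and 2629, 2950 and 3019 with EGCG. With resveratrol they were 2118, 2174 and 2323, and in combination 2068, 2177 and 2297. The highest library with resveratrol was below the lowest without it. PKP3 fell by 0.40 on the log2 scale with resveratrol (SE 0.03, adjusted p = 1.9e-12, edgeR), a loss of 24.4%, and by 0.43 in combination (SE 0.03, adjusted p = 3.7e-13, edgeR). The log2 fold change with resveratrol was -0.44 within replicates 1 to 3 and -0.37 within replicates 4 to 6.

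PKP2 (ENSG00000057294, chr12:32790745-32896798, minus strand) is a plakophilin found in simple epithelia and the heart. It gave 1090, 1220 and 1282 in the control, 1132, 1208 and 1246 with EGCG, 945, 1024 and 1093 with resveratrol, and 927, 1033 and 1062 in combination. The combination libraries lay below all control libraries, and the resveratrol libraries overlapped them narrowly. PKP2 fell by 0.23 on the log2 scale with resveratrol (SE 0.04, adjusted p = 1.1e-05, edgeR) and by 0.24 in combination (SE 0.04, adjusted p = 3.8e-06, edgeR). The replicate sets gave -0.19 and -0.27 with resveratrol. A same-strand lncRNA that shares 424 exonic bases with it averaged 0.667 counts, against 1128 for PKP2.

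PKP1 (ENSG00000081277, chr1:201283452-201332993, plus strand), the plakophilin of stratified epithelia, was not called in any comparison. Its lowest, median and highest values were 3090, 3338 and 3610 in the control, 3041, 3353 and 3617 with EGCG, 3213, 3504 and 3657 with resveratrol, and 3129, 3291 and 4001 in combination. The groups overlapped throughout. The difference with resveratrol was 0.05 on the log2 scale with a 95% interval from -0.04 to 0.15, and in combination 0.02 with an interval from -0.07 to 0.12. The value of 4001 was combination replicate 3, and the other 5 combination libraries reached 3387. The combination difference was of opposite sign in the replicate sets and called in each alone, at 0.15 in replicates 1 to 3 (adjusted p = 0.0357, edgeR) and -0.10 in replicates 4 to 6 (adjusted p = 0.027, edgeR).

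JUP (ENSG00000173801, chr17:41754604-41786931, minus strand) encodes plakoglobin, which desmosomes share with adherens junctions. It gave 5238, 5582 and 5805 in the control, 5524, 5724 and 6301 with EGCG, 5913, 6300 and 6591 with resveratrol, and 6247, 6461 and 7657 in combination. Both groups with resveratrol lay above all controls but overlapped the EGCG group. JUP rose by 0.18 ± 0.04 with resveratrol (log2 scale, adjusted p = 0.0004, edgeR) and by 0.26 ± 0.04 in combination (adjusted p = 1e-06, edgeR). Without combination replicate 3 the combination rise was 0.21. It was 0.35 within replicates 1 to 3, which hold that library, and 0.18 within replicates 4 to 6.

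DSP (ENSG00000096696, chr6:7541338-7586714, plus strand), the plakin that ties the plaque to keratin, was the most variable member. Its values were 5099, 5629 and 6927 in the control, 4623, 5603 and 6855 with EGCG, 5624, 6222 and 6964 with resveratrol, and 4956, 6116 and 7081 in combination. The groups overlapped, and its coefficient of variation was the highest of the members in each group, at 13.4% in the control against a median of 4.80%. Replicates 4 to 6 were all above replicates 1 to 3 in the control (means 6472 and 5149), with EGCG (6467 and 4756) and with resveratrol (6757 and 5709), but not in combination (6285 and 5942). The difference with resveratrol was 0.10 ± 0.09 (log2 scale, adjusted p = 0.323, edgeR). With the replicate set as a term in the model DSP was called higher with resveratrol (0.11, adjusted p = 0.0834, edgeR), as in 4 other of its 35 alternatives. In combination the difference was 0.08 ± 0.09 (adjusted p = 0.473, edgeR), and 0.03 without combination replicate 3. It was called higher within replicates 1 to 3 (0.21, adjusted p = 0.0158, edgeR) and was -0.04 within replicates 4 to 6 (adjusted p = 0.463, edgeR). The antisense DSP-AS1 averaged 10.9 counts, against 6014 for DSP.

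PERP (ENSG00000112378, chr6:138088505-138107419, minus strand) was not called in any comparison. Its lowest, median and highest values were 4165, 4305 and 4533 in the control, 4100, 4250 and 4537 with EGCG, 4217, 4435 and 4560 with resveratrol, and 3763, 4382 and 4456 in combination. The lowest was combination replicate 3, the other 5 combination libraries starting at 4375. The 95% interval of its log2 difference ran from -0.03 to 0.10 with resveratrol and from -0.07 to 0.06 in combination.

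Counted over the members, 7 of 10 were called with resveratrol, 4 higher (DSC2, DSG3, DSC3, JUP) and 3 lower (PKP3, PKP2, DSG2), where 56.9% of all tested genes were called (edgeR quasi-likelihood test). In combination 6 were called, DSG3, DSC2 and JUP higher and PKP3, PKP2 and DSG2 lower, against 59.8% of all genes. These shares are near the background. The libraries did not overlap the control for 4 higher and 1 lower member with resveratrol, where this held for 31.0% of all genes, and for 2 higher and 2 lower in combination, against 31.9%. In absolute size, the members' median log2 fold change was 0.18 with resveratrol and 0.16 in combination, and that of all tested genes 0.20 and 0.22. Scaling by library size alone moved the members by at most 0.09 on the log2 scale. It called 9 members with resveratrol, 7 of them higher, and 8 in combination, 6 of them higher, DSG2 being lost and PKP1 and PERP gained in both. Its share of higher calls over all genes was 68.3% with resveratrol, against 50.7%, and 64.6% in combination, against 50%.

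**Figure D3:**
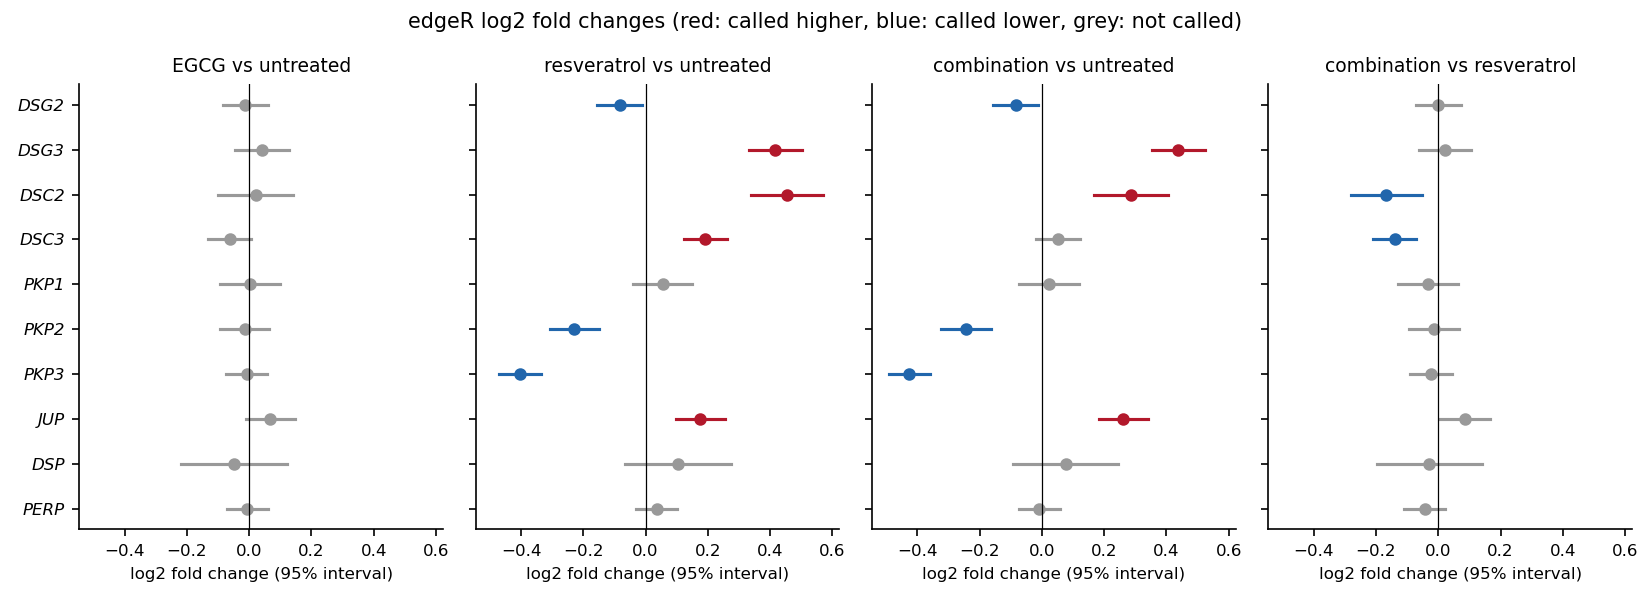
edgeR log2 fold changes with 95% intervals for the 10 genes in 4 comparisons, red where called higher, blue where called lower and grey where not called. With EGCG no interval leaves 0, and the patterns with resveratrol and in combination have the same called members apart from DSC3.

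EGCG alone gave no called member of 10, against 1.76% of all genes. By edgeR no member had an unadjusted p under 0.05, by the exact permutation test none had one either, and DESeq2 called 0. No member separated from the control in all libraries, against 1.58% of all genes. The largest differences were 0.07 ± 0.04 for JUP (log2 scale, adjusted p = 0.592, edgeR) and -0.06 ± 0.04 for DSC3 (adjusted p = 0.559, edgeR). The 95% intervals of the members other than DSP lay between -0.13 and 0.15, and that of DSP ran from -0.22 to 0.12, and any difference beyond these bounds was outside the intervals.

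Adding EGCG to resveratrol was tested by setting the combination against resveratrol alone. Both desmocollins were lower: DSC3 fell by 0.14 on the log2 scale (SE 0.04, adjusted p = 0.0124, edgeR), its 6 combination libraries lying below all 6 of resveratrol, and DSC2 fell by 0.17 (SE 0.06, adjusted p = 0.0901, edgeR) with overlapping libraries. These were 2 of 10 members, where 7.86% of all genes were called, and 1 member of 10 did not overlap, against 3.20%. The call on DSC2 was lost in 11 of 35 alternatives. These were an adjusted p under 0.05, replicates 4 to 6 alone, and the fits without EGCG replicate 4 or 6, without resveratrol replicate 1, 2 or 3, and without combination replicate 2, 3, 5 or 6. DSC3 was lost in replicates 1 to 3 alone (-0.13, adjusted p = 0.124, edgeR). JUP differed by 0.09 ± 0.04 (adjusted p = 0.249, edgeR), and without combination replicate 3 by 0.04 (adjusted p = 0.649, edgeR). For JUP the difference was called higher within replicates 1 to 3, which hold that library (0.17, adjusted p = 0.081, edgeR), and was 0.00 within replicates 4 to 6 (adjusted p = 0.996, edgeR). PKP1, not called over all libraries, was called lower within replicates 4 to 6 (-0.16, adjusted p = 0.0196, edgeR) and differed by 0.09 within replicates 1 to 3.

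Against EGCG alone, the combination had 6 of 10 members called (57.8% of all genes), with DSG3 at 0.40, DSC2 at 0.27, JUP at 0.19 and DSC3 at 0.11 higher and PKP3 at -0.42 and PKP2 at -0.23 lower on the log2 scale. Libraries did not overlap for DSG3, PKP3 and PKP2, against 27.5% of all genes. This comparison and that with the untreated control share the combination libraries. The interaction, which asks whether the effect of both agents departs from the sum of their log2 effects, called no member, where 0.265% of all genes were called. DSC2 had the smallest interaction p, at -0.19 ± 0.08 (adjusted p = 0.597, edgeR), the only one of 10 under 0.05 before adjustment, and DESeq2 called 0.

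Ratios of related members within a library do not depend on scaling. DSG3 gave 0.713 counts per count of DSG2 in the control (range 0.646 to 0.800) and 0.740 with EGCG (0.692 to 0.810), but 1.01 with resveratrol (0.959 to 1.09) and 1.03 in combination (0.959 to 1.12). The libraries with resveratrol did not overlap those without. The ratio was 1.42 times the control value with resveratrol and 1.44 times in combination (two-sided exact permutation test, Benjamini-Hochberg adjusted over 20 tests of 4 ratios, p = 0.00618 for both). A ratio passed at an adjusted p under 0.05. Within replicates 1 to 3 the combination difference was 0.67 on the log2 scale and within replicates 4 to 6 it was 0.39.

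PKP1 to PKP3 went from 1.14 in the control (1.04 to 1.29) to 1.57 with resveratrol (1.48 to 1.64) and 1.55 in combination (1.48 to 1.74), again without overlap (adjusted exact permutation p = 0.00618 for both). PKP1 to PKP2 went from 2.77 (2.41 to 3.01) to 3.37 (2.94 to 3.83) and 3.31 (2.97 to 4.32), with overlap (adjusted exact permutation p = 0.013 and 0.0108). DSC3 to DSC2 went the other way, from 3.16 (2.88 to 3.46) to 2.64 (2.40 to 2.94) and 2.68 (2.44 to 2.80), with adjusted exact permutation p = 0.013 and 0.00618. That shift was -0.45 with resveratrol on the log2 scale in replicates 1 to 3 and -0.07 in replicates 4 to 6. No ratio passed with EGCG alone or between the combination and resveratrol (lowest adjusted exact permutation p = 0.363).

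**Figure D4:**
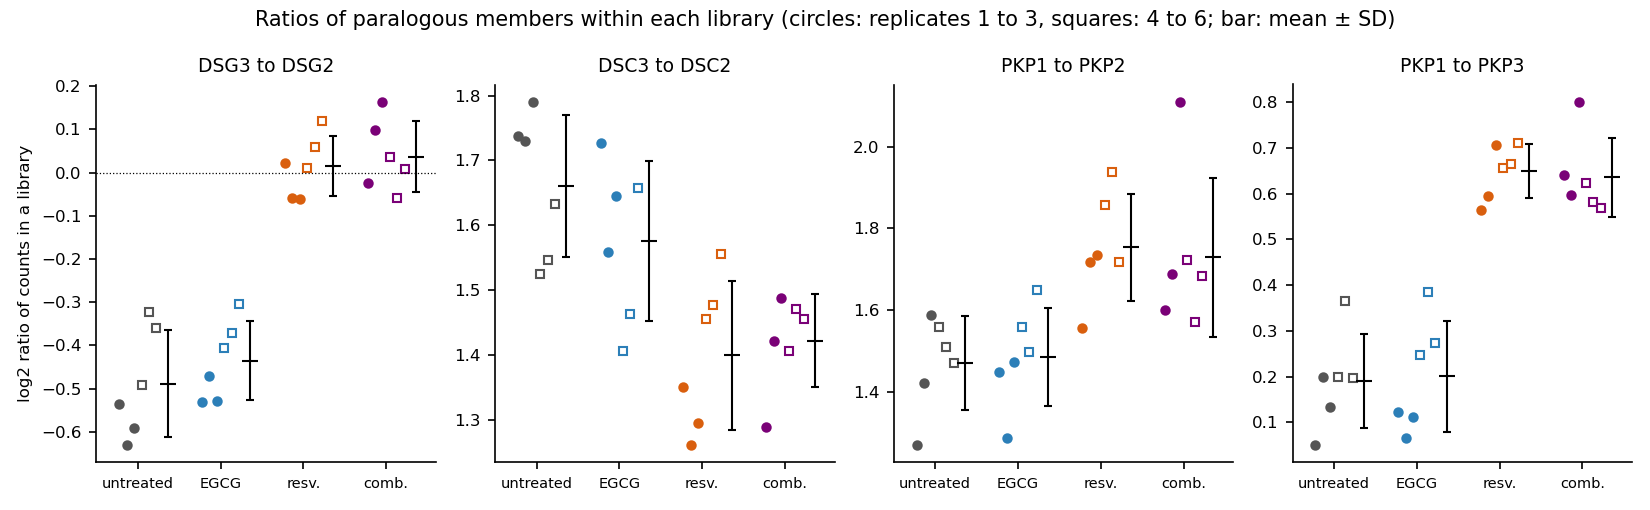
Log2 ratios of the counts of 4 pairs of related members in each of 24 libraries, with circles for replicates 1 to 3, squares for replicates 4 to 6 and a bar for mean ± SD. DSG3 to DSG2 moves from below 0 to about 0 and PKP1 to PKP3 upward wherever resveratrol was given, and DSC3 to DSC2 moves downward.

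In FPKM summed by role, the 4 cadherins made up 79.3 ± 2.32 (SD, n = 6) in the control, 78.8 ± 4.30 with EGCG, 89.6 ± 0.628 with resveratrol and 87.6 ± 3.70 in combination. The share of DSG2 in that sum went from 39.5% to 32.9% with resveratrol and that of DSG3 from 30.6% to 36.0%. These sums and shares rest on the authors' gene lengths. With exon-union lengths DSG3 was already above DSG2 in the control, at 212 against 174 normalized counts per kb. The plakophilins summed to 169.7 ± 2.90, 169.1 ± 6.42, 147.3 ± 4.77 and 144.7 ± 7.41 in the same order, PKP3 passing from 52.1% to 45.3% of the sum and PKP1 from 36.3% to 43.4%. The mean sum of cadherin mRNA was thus higher and that of plakophilin mRNA lower in the groups with resveratrol. The sums were not tested. Cadherin sums in combination (81.0 to 91.1) overlapped those of the control (75.6 to 81.3) and of EGCG (up to 83.8).

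The patterns of single genes most like those of the members with the widest range of group means were found by Pearson correlation of log2 CPM over the 24 libraries, which share the 4 treatments. For DSC2 these were DDX60 (r = 0.927), RBL2 (0.910) and CERS3 (0.905). For DSG3 they were CPLANE1 (0.972), TRIM2 (0.971) and AHR (0.967), and for PKP3 they were LMNB2 (0.986), LMNA (0.980) and TUBB (0.980). Within groups, after removal of group means, the highest correlation over all 24 libraries was that of PKP1 and JUP (r = 0.857, and 0.759 without combination replicate 3). DSG3 and DSC3 gave 0.807 and 0.804, and DSG3 and DSP gave 0.755 and 0.848, the highest of all pairs of members without that library. The difference between replicate sets was not removed and enters these correlations. In the control, PKP1, JUP, DSG3, DSC3 and DSP each had replicates 4 to 6 all above replicates 1 to 3. The part of this division in the correlations was not tested.

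The other desmosome genes were weakly expressed except PKP4, a plakophilin relative found at several junctions. DSG4 and CDSN did not pass the filter. DSG1 and DSC1, the cadherins of the upper epidermal layers, averaged 87.3 and 56.8 normalized counts in the control. All 3 tested genes were called lower in combination, where 59.8% of all tested genes were called in either direction. The log2 fold change was -0.27 ± 0.03 for PKP4 (adjusted p = 8.3e-09, edgeR), -0.61 ± 0.16 for DSG1 (adjusted p = 0.00141, edgeR) and -0.47 ± 0.16 for DSC1 (adjusted p = 0.0138, edgeR). With resveratrol alone only PKP4 was called, at -0.22 ± 0.03 (adjusted p = 6.9e-07, edgeR), where 56.9% of all tested genes were called. Against resveratrol, the combination was lower for DSG1 (-0.52, adjusted p = 0.049) and DSC1 (-0.67, adjusted p = 0.0067, edgeR), where 7.86% of all genes were called.

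Of the other junctions, the tight junction list had the highest median. With resveratrol 8 of its 12 genes were called higher and 2 lower, with a median log2 fold change of 0.48 beside 0.00 for all tested genes. In combination 8 were higher and 1 lower, with a median of 0.53. The counts of this and the following lists stand beside 56.9% of all tested genes called with resveratrol and 59.8% in combination, in either direction, and nothing particular to a list is read from them. CLDN1, a barrier-forming claudin, went from 1174 normalized counts in the control to 2052 with resveratrol and 2901 in combination, and OCLN (occludin) from 318 to 489 and 526. The adherens junction list was divided, with 3 of 10 higher and 3 lower with resveratrol and 4 and 2 in combination. CDH1 (E-cadherin) rose by 0.29 and 0.43 on the log2 scale (adjusted p = 4.8e-12 and 9.6e-17, edgeR), and CTNNA1 (alpha-catenin) fell by 0.26 and 0.23.

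Among 6 hemidesmosome genes, which anchor the cell to its matrix, 4 were called lower and 1 higher with resveratrol and likewise in combination. ITGA6 (integrin alpha 6) fell by 0.29 with resveratrol and COL17A1 by 0.24 on the log2 scale. Among 7 gap junction genes 2 were higher and 3 lower in both, GJB2, a connexin, rising by 0.49 on the log2 scale with resveratrol. Among 15 keratins, the filaments that desmosomes hold, 3 were higher and 5 lower with resveratrol (8 of 15, beside 56.9% of all genes) and 3 and 8 in combination (11 of 15, beside 59.8%), KRT5, KRT6A and KRT17 at -0.29, -0.27 and -0.41 with resveratrol. Reads of KRT6A and KRT17 could be divided with near-identical copies, since how such reads were counted is not given in the sources used here.

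Of 14 genes listed as desmosome regulators (transcription factors, proteases, kinases and partners of the plaque), 8 were called higher and 3 lower with resveratrol, with a median of 0.26, and 9 and 2 in combination, with a median of 0.35. GRHL3, a grainyhead factor of epidermal differentiation, rose from 83.9 to 178 and 169 normalized counts with resveratrol and in combination. With EGCG alone 2 adherens junction genes, 1 tight junction gene, 1 keratin and 1 regulator were called, all of them higher, and no gene of the hemidesmosome, gap junction or other desmosome lists, beside 1.76% of all genes.

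**Figure D5:**
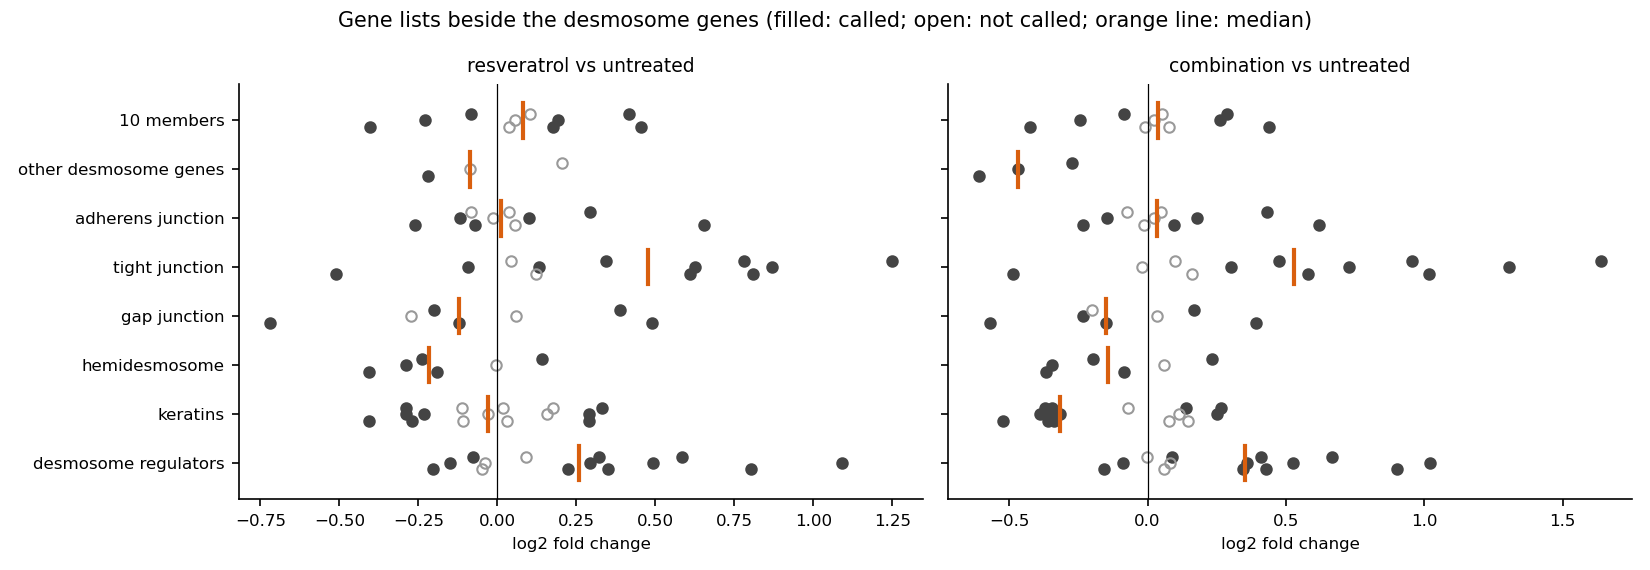
edgeR log2 fold changes of the tested genes of each list with resveratrol and in combination, each against the untreated control, filled where called, open where not, with an orange line at the median of the list. The tight junction and regulator lists lie mostly above 0, hemidesmosome genes mostly below, and the desmosome members on both sides.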

How the data were processed

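RNA-seq of 24 libraries of MDA686TU cells was used. Per the submitters' processing notes, the authors worked with bcl2fastq 2.17.1.14, Trimmomatic 0.36, FastQC 0.11.5, HISAT2 2.0.4 (GRCh38), SAMtools 1.3.1 and DESeq2 1.20.0 on stranded, poly(A)-selected paired reads. The counting program, annotation release and strand setting are not given in the sources used here. The authors deposited 1 table each of raw counts (whole numbers, replicates not pooled), normalized counts, a signal equal to the raw counts divided by 1 factor per library, and FPKM, deposited as normalized counts divided by a gene's length. Every value per library in the text is a normalized count or, for levels between genes, FPKM.

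Raw counts of all 24 libraries were fitted in edgeR 4.0.16 (R 4.3.3) with TMM scaling, filterByExpr and the quasi-likelihood test, and p-values were adjusted by Benjamini-Hochberg over 15476 genes. Genes were called at an adjusted p under 0.1 and p under 0.05, the limits in the study's methods. The common biological coefficient of variation was 5.32%. The edgeR and DESeq2 steps were tested on simulated data. Single members and log2 ratios of counts, with 0.5 added, were tested by two-sided exact permutation of 6 libraries against 6 (Python 3.11.15, scipy), and log2 CPM had a prior count of 2. The 95% intervals of fold changes come from their SE.

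The members and lists were chosen with earlier results of these data known. All 10 members are named. Of the other lists a gene may be named if among the 3 smallest p in combination against the untreated control, or if a result turns on it. The results of 2 genes under this rule are not reported here. Alternatives were DESeq2 1.42.0, other scalings and filters, a stricter threshold, only the groups compared, the replicate number as a block, the replicate set as a term or each set alone, and each library left out. No label pairs same-numbered libraries, and the main fit did not pair them. Of 36 same-numbered pairs 2 deviated together with r over 0.1, and in 15 the library correlated best with its own number. Positions come from GENCODE v44, and the gene length from its exon union was added after seeing the data. Reads come without molecular identifiers, and counting error is part of the SD over libraries.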

Additional observations from a re-analysis of the deposited data

Results flagged for a closer look

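Of 56 sets of 6 libraries (10 members and 4 ratios in 4 groups), 6 held a library that stood far from the other 5 by Dixon's criterion. Chance alone meets it in about 1 of 20 sets. The 56 sets are not independent, since they share libraries and the ratios are built from the members' counts. In 5 of the 6 flagged sets the library was combination replicate 3. PKP1 had 4001 normalized counts there against 3129 to 3387 in the other 5 libraries, JUP 7657 against 6247 to 6573, and PERP 3763 against 4375 to 4456. The log2 ratio of PKP1 to PKP2 was 2.11 in that library against 1.57 to 1.72, and that of PKP1 to PKP3 was 0.80 against 0.57 to 0.64. PKP3 had 2629 normalized counts in EGCG replicate 5, against 2905 to 3019 in the other EGCG libraries. The calls on PKP1, JUP and PERP in combination against the untreated control were the same without combination replicate 3, with log2 fold changes of -0.03, 0.21 and 0.03.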

How the results depend on the processing

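Of 2090 alternative values of single members, 2018 kept their direction, or passed in neither fit, and kept their side of the threshold, 38 lost a call, 29 gained one and 5 turned direction with a call on one side. DSG3, DSC2, JUP, PKP3 and PKP2 kept their calls with resveratrol and in combination in 35 of 35 alternatives. The 5 were DSG2 with resveratrol (0.0046) and PERP in combination against the untreated control (0.0752) and EGCG (0.0741), all scaled by library size alone, and PKP1 in replicates 4 to 6 alone, in combination against the untreated control (-0.10) and EGCG (-0.13). The members called in combination against resveratrol were 1 in place of 2 at an adjusted p under 0.05, and 1 to 2 with a library left out. The cause was not tested. Counts of called members elsewhere stayed within 1.5 times.

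Over the 320 alternative values of the ratios none turned direction with a call. In replicates 1 to 3 alone, where 3 against 3 cannot pass, log2 DSG3 to DSG2 differed by 0.67 in combination against the untreated control, 0.11 against resveratrol and 0.59 against EGCG, DSC3 to DSC2 by -0.45 with resveratrol and -0.35 in combination, and PKP1 to PKP3 by 0.55 in combination and 0.58 against EGCG. In replicates 4 to 6 alone these were 0.39, -0.068, 0.36, -0.072, -0.12, 0.34 and 0.29. DSC3 to DSC2 in combination against EGCG ranged from -0.189 to -0.124 with a library left out and passed without EGCG replicate 4 or 5. The cause was not tested.

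With the replicate number as a replicate block, a paired fit although no label pairs the libraries, edgeR called 8 members with resveratrol and 6 in combination. It called 2 in combination against resveratrol and 8 against EGCG. DSP was gained with resveratrol, and DSP and DSG2 in combination against EGCG. Over all 15476 tested genes this fit called 9042, 9479, 1520 and 9136 in the same order. Without the block 8807, 9258, 1217 and 8950 were called. Of 36 same-numbered pairs of libraries, in 15 the library correlated best with its own number. Between groups, the median r of deviations was 0.0365 for libraries of the same replicate set and -0.0406 for those of other sets. In the paired exact sign-flip test all 11 ratio calls, made at an adjusted p under 0.05, were lost, while the block leaves the differences themselves as they are: DSG3 to DSG2 0.50, 0.53 and 0.47 (resveratrol, combination, and combination against EGCG), DSC3 to DSC2 -0.26 and -0.24, PKP1 to PKP2 0.28, 0.26 and 0.24, and PKP1 to PKP3 0.46, 0.44 and 0.43. Their exact adjusted p was 0.0568 for each, since 6 pairs allow few sign patterns. With the exon-union length, chosen after seeing the data, the level of DSG3 over DSG2 was 1.22 in place of 0.776 in the untreated control. Depth was no limit for the members, each with at least 352 counts in every library.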
